A study of Mus musculus with 2 samples.

Results

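The genes described here are 10 genes of cartilage, out of 32285 genes counted, taken by their symbols from a fixed list: the matrix genes Acan, Col2a1, Col9a1, Col11a1, Matn3 and Hapln1, the receptor gene Fgfr3, and the transcription factor genes Sox5, Sox6 and Sox9. They are called the members. They were followed across the populations and the single nuclei of 1 single-nucleus RNAseq library, made 5 days after a musculoskeletal traumatic injury (MTI) of the mouse tibia.

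Chondrocytes build a matrix of collagen fibrils and of aggrecan bound to hyaluronan, and during fracture repair they form the soft callus that is later replaced by bone. SOX9 is the transcription factor that commits skeletal progenitors to the chondrocyte lineage, and SOX5 and SOX6 act with it on cartilage matrix genes such as Col2a1 and Acan. SOX5 and SOX6 also work in other lineages, SOX6 among them in skeletal muscle fibres and in erythroid cells.

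MTI is a tibial fracture combined with a compression injury of the adjacent muscles, and it was made in C57BL6 mice of 10 to 14 weeks. The hematoma and callus with the activated periosteum were pooled from 3 or 4 mice at day 5 post-MTI, and nuclei were extracted and sorted on a nuclear dye. Only 1 library was made, so no value below has a biological replicate: each interval is a 95% interval for counting error only, no p-value is given, and nuclei of the same library are not replicates. The study asks how MTI changes the inflammatory and skeletal cells of the callus, and the comparison made here is where the members were found inside the MTI library. A second library, of day 1 post-fracture, differs from it in day and in injury together and was not compared with it.

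The MTI library held 5899407 unique molecular identifiers (UMIs, each a captured RNA molecule) in 1446 barcodes, and 33 of its barcodes also occurred in the day 1 library. With the limits that the study set (from 200 to 5000 genes, mitochondrial UMIs under 5% and ribosomal ones under 2%), 1127 nuclei were retained, at a median of 2364 UMIs. The study then also removed myogenic cells, while myogenic nuclei were kept here and count among the other nuclei below. Levels are given as UMIs per 1000000 UMIs (CPM), summed over the nuclei of a population. The nuclei were clustered without the members and without other cartilage genes, so that neither decided the populations. The skeletal lineage-like population, named from 18 markers of fibrogenic cells, progenitors and osteoblasts such as Postn, Col1a1 and Sp7, held 176 nuclei (15.6% of those retained) with a median of 3818 UMIs. Its marker list summed to 14513 CPM against 623 CPM in the other 951 retained nuclei, and markers of immune cells to 157 CPM against 2329 CPM.

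The matrix members encode the fibrils and the proteoglycan gel of cartilage. Col2a1 (type II collagen, the main fibril; chr15:97975602-98004695), Col9a1 (type IX collagen, which decorates that fibril; chr1:24177610-24252684) and Col11a1 (type XI collagen, in its core; chr3:114030540-114220718) are the collagens. Acan (aggrecan; chr7:79053483-79115099), Hapln1 (the link protein that fastens aggrecan to hyaluronan; chr13:89539796-89611652) and Matn3 (matrilin 3, an adaptor protein; chr12:8947929-8972028) complete the matrix group. Fgfr3 (chr5:33721674-33737068) encodes an FGF receptor of growth plate chondrocytes. Sox9 (chr11:112782224-112787760) is a short gene of 5.54 kb, while Sox6 (chr7:115470872-116038796) spans 567.9 kb and Sox5 (chr6:143828425-144781977) 953.6 kb. Coordinates are those of the GENCODE annotation of mm10. Because nuclear RNA is rich in introns, levels of different genes are set side by side only per 100 kb of gene span. The span of Sox5 overlaps 6 other counted genes and that of Sox6 overlaps 2, and reads of such neighbours may be split between them.

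The promoters of a pair of matrix members and of a pair of SOX genes are shown as examples of short motif letters. Of the 10 members, 8 had a promoter in the RefSeq table of GRCm38.p6 (250 bases before to 50 bases after the start), 15 promoters in all. Capitals mark the GC box letters GGGCGG, read on both strands, in the first 2 sequences and the SOX-type letters ACAAAG or ACAATG, read on both strands, in the last 2.
Acan promoter (chr7:79052976-79053275, GRCm38.p6, plus strand): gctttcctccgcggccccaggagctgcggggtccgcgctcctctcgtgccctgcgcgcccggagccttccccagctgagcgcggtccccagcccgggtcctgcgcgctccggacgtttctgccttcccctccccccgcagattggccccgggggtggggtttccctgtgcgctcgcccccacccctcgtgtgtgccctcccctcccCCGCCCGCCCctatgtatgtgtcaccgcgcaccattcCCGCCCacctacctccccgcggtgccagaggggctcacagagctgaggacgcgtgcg
Matn3 promoter (chr12:8947679-8947978, GRCm38.p6, plus strand): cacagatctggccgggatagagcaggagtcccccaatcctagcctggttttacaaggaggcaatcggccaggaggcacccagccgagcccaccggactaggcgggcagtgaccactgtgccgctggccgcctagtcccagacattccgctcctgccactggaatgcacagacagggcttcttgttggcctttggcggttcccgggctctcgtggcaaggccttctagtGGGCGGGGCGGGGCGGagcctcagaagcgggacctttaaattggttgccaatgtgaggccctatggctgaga
Sox5 promoter (chr6:143947057-143947356, GRCm38.p6, minus strand): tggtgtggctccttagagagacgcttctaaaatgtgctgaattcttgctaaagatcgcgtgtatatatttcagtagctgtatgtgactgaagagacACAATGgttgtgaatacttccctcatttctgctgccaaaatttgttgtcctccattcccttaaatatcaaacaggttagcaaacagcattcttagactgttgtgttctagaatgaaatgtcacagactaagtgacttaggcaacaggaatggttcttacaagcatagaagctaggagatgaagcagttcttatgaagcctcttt
Sox6 promoter (chr7:115995037-115995336, GRCm38.p6, minus strand): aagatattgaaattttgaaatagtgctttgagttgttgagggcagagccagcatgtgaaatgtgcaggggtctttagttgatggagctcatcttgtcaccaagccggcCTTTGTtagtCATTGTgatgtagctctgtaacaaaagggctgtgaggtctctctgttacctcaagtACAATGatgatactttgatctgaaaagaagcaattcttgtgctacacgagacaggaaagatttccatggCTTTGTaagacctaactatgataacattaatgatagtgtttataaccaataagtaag
SOX-type letters were present in promoters of 2 members, Sox5 and Sox6 (6 of the 15 promoters, 5 of them alternative starts of Sox6), and 28.6% of all 32841 RefSeq promoters held them. The promoters of Acan, Col9a1, Col11a1, Matn3, Hapln1 and Fgfr3 did not hold these letters in this window. GC box letters were present in 6 of the 15 promoters, of 5 members (Acan, Col11a1, Matn3, Fgfr3 and Sox6), against 35.7% of all promoters. An alternative promoter of Sox6, not shown, held both kinds of letters. The starts of the Sox5 and Sox6 sequences shown lie inside the GENCODE genes. A match of letters is a description and not a binding site.

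Together the members made up 6621 UMIs in the skeletal lineage-like nuclei, 6475 CPM (95% interval 6320-6633), which was 75.2% of their UMIs among retained nuclei. In the other 951 nuclei they summed to 660 CPM, so the ratio was 9.80 (9.34-10.3). Sox6 gave 1730 of the 2189 member UMIs in these other nuclei, 1436 of them in the myogenic-like nuclei that were kept here. Of the 10 members, 9 were at least 2-fold higher in the skeletal lineage-like nuclei, where 15.6% of the 15213 genes with at least 10 UMIs were at least 2-fold higher and 23.4% at least 2-fold lower. The exception was Sox6.

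The 3 collagen genes all had ratios of 50.8 or more. Col11a1 gave 3006 UMIs in 96 of the 176 skeletal nuclei (2940 CPM) against 192 UMIs in 77 of the other nuclei (57.9 CPM), a ratio of 50.8 (43.9-59.0). Col2a1 gave 665 UMIs in 21 skeletal nuclei (650 CPM) against 41 UMIs in 33 other nuclei (12.4 CPM), a ratio of 52.6 (38.3-74.0). The skeletal nuclei with Col2a1 were fewer in number but a larger share of their group, 21 of 176 (11.9%) against 33 of 951. They carried most of its UMIs. Col9a1 reached 280 CPM against 2.72 CPM, a ratio of 103 (53.5-228), from 16 skeletal nuclei.

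The proteoglycan, link protein and matrilin genes were also highest in the skeletal nuclei. Acan reached 411 CPM in 31 skeletal nuclei against 8.15 CPM in the others, a ratio of 50.4 (34.2-77.4). Hapln1 reached 395 CPM against 5.13 CPM, a ratio of 77.0 (47.5-134), from 14 nuclei. Matn3 reached 224 CPM against 2.11 CPM, a ratio of 106 (50.6-267), from 18 nuclei. Fgfr3 gave 52 UMIs in 13 skeletal nuclei, 50.9 CPM against 3.92 CPM, a ratio of 13.0 (6.96-26.0).

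The SOX genes did not share a distribution. Sox5 was seen in 109 skeletal nuclei (61.9%) at 778 CPM against 38.3 CPM, a ratio of 20.3 (16.8-24.7). Sox9 was seen in 37 skeletal nuclei at 105 CPM against 7.84 CPM, a ratio of 13.3 (8.63-21.3). Sox6 was also seen in 37 skeletal nuclei, at 641.5 CPM, but the other nuclei held 522 CPM, and the ratio of 1.23 (1.12-1.35) was under 2.

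Sox6 was highest in the 102 myogenic-like nuclei, where 85 nuclei (83.3%) held 1436 UMIs, 2030 CPM (1927-2138). This was 3.17 times (2.88-3.48) the skeletal level. Both myogenic-like clusters carried it: 75 nuclei led by genes such as Myh2, an adult myosin, had 2139 CPM, and 27 nuclei led by Myh8 and Myh3, myosins of immature fibres, had 1873.5 CPM with a UMI in each of the 27 nuclei. After the skeletal level came the erythroid-like nuclei with 598 CPM (486-727), which rested on 10 of 32 nuclei, and an unnamed cluster of 25 nuclei with Pax7 among its leading genes with 556 CPM (455-672). These 3 intervals overlap. In the same myogenic-like nuclei Sox5 gave 2 UMIs and Col2a1 1 UMI, and Matn3 gave 0 UMIs. There 3 UMIs, used here as a floor, would be 4.24 CPM, and the exact interval ends at 5.215 CPM.

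**Figure D1:**
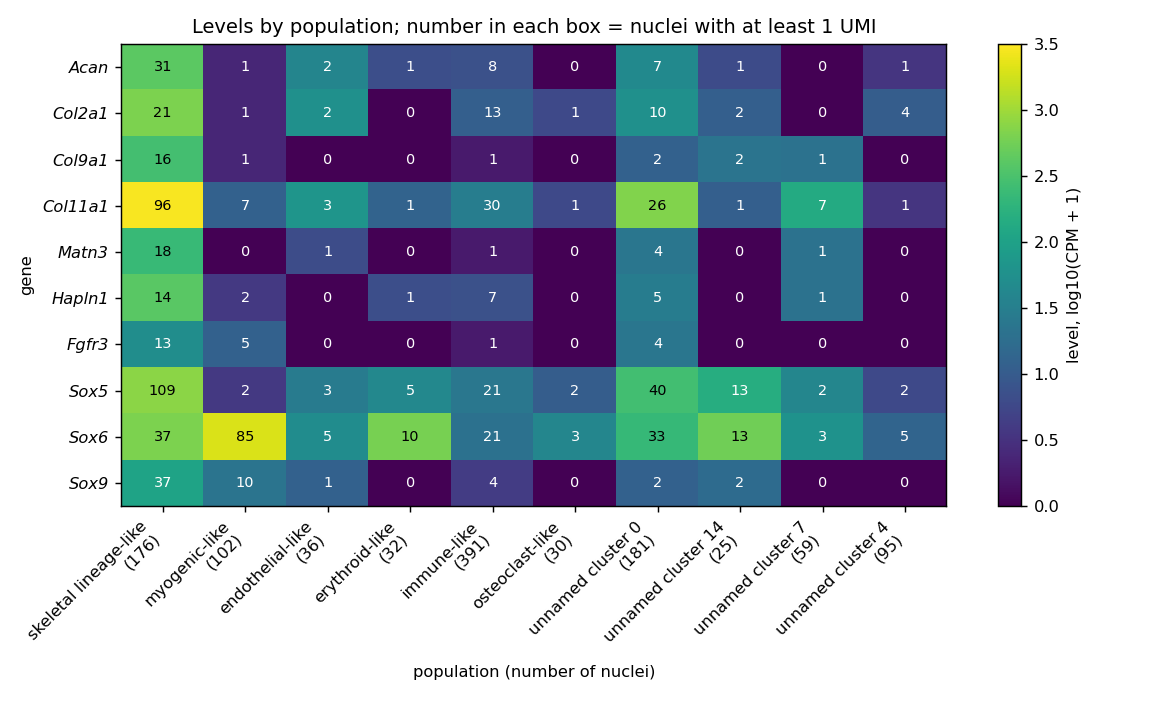
Color gives the level of each member, as log10(CPM + 1), in each of 10 populations of the MTI library, and the number in each box counts the nuclei with at least 1 UMI. The skeletal lineage-like column is the highest for 9 members, while Sox6 is highest in the myogenic-like column with 85 of 102 nuclei.

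The second place was usually taken by an unnamed cluster of 181 shallow nuclei (median 689 UMIs), with 696 CPM for Col11a1, 277 CPM for Sox5 and 56.6 CPM for Col2a1. One of its nuclei held 65 of its 123 Col11a1 UMIs, and without that nucleus, left out after its value was seen, the level was 339.8 CPM (258-439). The interval of the second population overlapped that of the skeletal nuclei only for Fgfr3, with 50.9 CPM (38.0-66.7) against 22.6 CPM (6.17-58.0). For Sox9 the myogenic-like nuclei came second with 21.2 CPM (11.9-35.0). When nuclei were grouped singly by a score of the marker lists, with no clusters, only 1 member, Sox9, was highest in the skeletal nuclei, and the other 9 were highest in a group of 15 nuclei scored erythroid-like that held 1 of the nuclei described next.

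Few nuclei carried most of the cartilage RNA. Of the 176 skeletal nuclei, 25 had no member, 59 had 1, 37 had 2 and 32 had 3. Beyond these, 7 nuclei had 4 members, 3 had 5 and 2 had 6, none had 7 or 8, 2 had 9 and 9 had all 10. The limit of 9 members used below was set in this gap after the values were seen, so what separates the 11 nuclei above it in the members themselves is a description and not a test. In the other 951 retained nuclei the highest number was 6 members, reached by 2 nuclei.

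**Figure D2:**
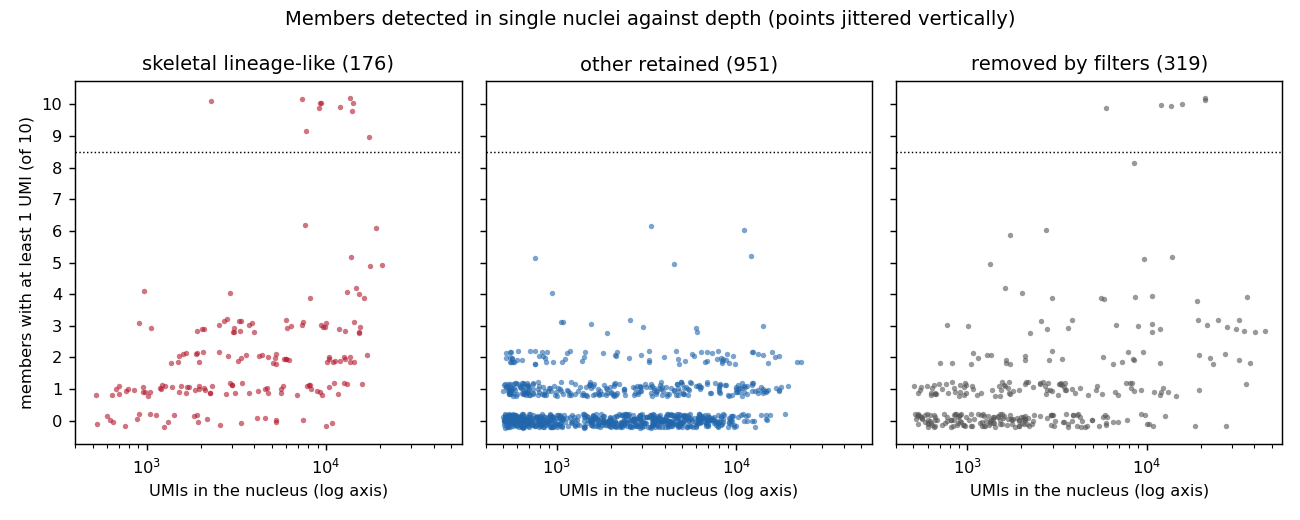
Each point is 1 barcode, with its UMIs on a log axis and the number of the 10 members with at least 1 UMI, in skeletal lineage-like nuclei, in other retained nuclei and in barcodes removed by the filters. The dotted line lies between 8 and 9 members: 11 retained skeletal nuclei and 6 removed barcodes lie above it, and no other retained nucleus has more than 6.

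These 11 nuclei were 0.976% of the retained nuclei and held 4547 member UMIs, 51.6% of all member UMIs in retained nuclei. Their summed level was 39080 CPM (37952-40232), against 2289 CPM (2191-2389) in the other 165 skeletal nuclei. Members made up 0.704% to 6.16% of the UMIs of each of the 11 nuclei, with a median of 4.26%. In 10 of them the share was 3.09% or higher. The exception, nucleus 11 in the plot of UMI shares, had 17466 UMIs, 0 UMIs of Hapln1, 3 of Col2a1 and 96 of Postn, a marker of fibrogenic cells.

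Just under the limit the nuclei looked different. Both skeletal nuclei with 6 members had 0.337% and 0.144% of their UMIs on members. Among the skeletal nuclei under the limit the highest share was 1.43%, in a nucleus of 20473 UMIs. That nucleus had 273 UMIs of Col11a1, 4 of Col2a1, 0 of Acan and 26 of Sp7, an osteoblast transcription factor. The next shares were 1.23%, from 23 UMIs of Sox5, and 1.09%, from 133 UMIs of Col11a1 beside 119 of Ibsp, a bone sialoprotein gene. In each of these skeletal nuclei with the highest shares, 1 member, Col11a1 or Sox5, gave most of the member UMIs. Retained nuclei outside the skeletal population reached 1.855%. Barcodes removed by the filters with at least 8 members, described below, had 1.859% to 6.626%.

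The nuclei were grouped by the number of members, so at any depth these groups differ in it by construction. The values below are descriptions. Among the other skeletal nuclei, 104 were at least as deep as the shallowest of the 11 (2290 UMIs), and they had at most 6 members with a median of 2. With each nucleus thinned to 500 UMIs, the 11 nuclei kept 0 to 8 members (median 7), and the others 0 to 3 (median 0). The 11 nuclei had a median of 9353 UMIs against 3383 in the others, the doublet caller marked 1 of 1419 barcodes and so in effect removed none, and the part of doublets was not tested. The share of skeletal nuclei with at least 3 members was 31.3% (24.5-38.7) unthinned, 10.9% at 1000 UMIs and 6.82% (3.57-11.6) at 500 UMIs.

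The collagens in the 11 nuclei differed in their range. Col11a1 was lowest at 31 UMIs, with a median of 133 and a highest value of 413, and its level of 15556 CPM held 60.2% of its skeletal UMIs. Col2a1 ran from 3 to 118 UMIs (median 61) and Col9a1 from 4 to 64 (median 24). The 11 nuclei held 97.9% of the skeletal UMIs of Col2a1 and 98.3% of those of Col9a1. Among the other 165 nuclei no nucleus had more than 4 UMIs of Col2a1 or 1 of Col9a1. The ranges of Col9a1 thus did not overlap in UMIs. In CPM of single nuclei they did, at 229 to 5345 in the 11 nuclei and 0 to 480.5 in the others. The 11 nuclei were chosen on the members, Col9a1 among them.

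Acan ran from 4 to 127 UMIs (median 26), Hapln1 from 0 to 99 (median 44) and Matn3 from 1 to 57 (median 18). The 11 nuclei held 91.2% of the skeletal UMIs of Acan, 99.0% of those of Hapln1 and 96.9% of those of Matn3. The other nuclei reached at most 6 UMIs of Acan and 1 each of Hapln1 and Matn3. Fgfr3 gave few UMIs per nucleus, 1 to 13 (median 3) in the 11 nuclei, and only 2 of the other 165 nuclei had any of it.

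Most skeletal UMIs of Sox6 lay in the 11 nuclei, which were chosen on the members, and most of those of Sox5 did not. Sox6 ran from 7 to 137 UMIs (median 32) in the 11 nuclei, which held 78.0% of its skeletal UMIs, and reached 24 in the others. Sox5 ran from 5 to 36 UMIs (median 15), but 98 of the other 165 nuclei also had it, 1 of them with 41 UMIs, and the 11 nuclei held only 23.0% of its UMIs. Sox9 ran from 0 to 12 UMIs (median 4) against at most 8 in the others, and the 11 nuclei held 52.3%. One of the 11 nuclei had no UMI of Sox9.

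**Figure D3:**
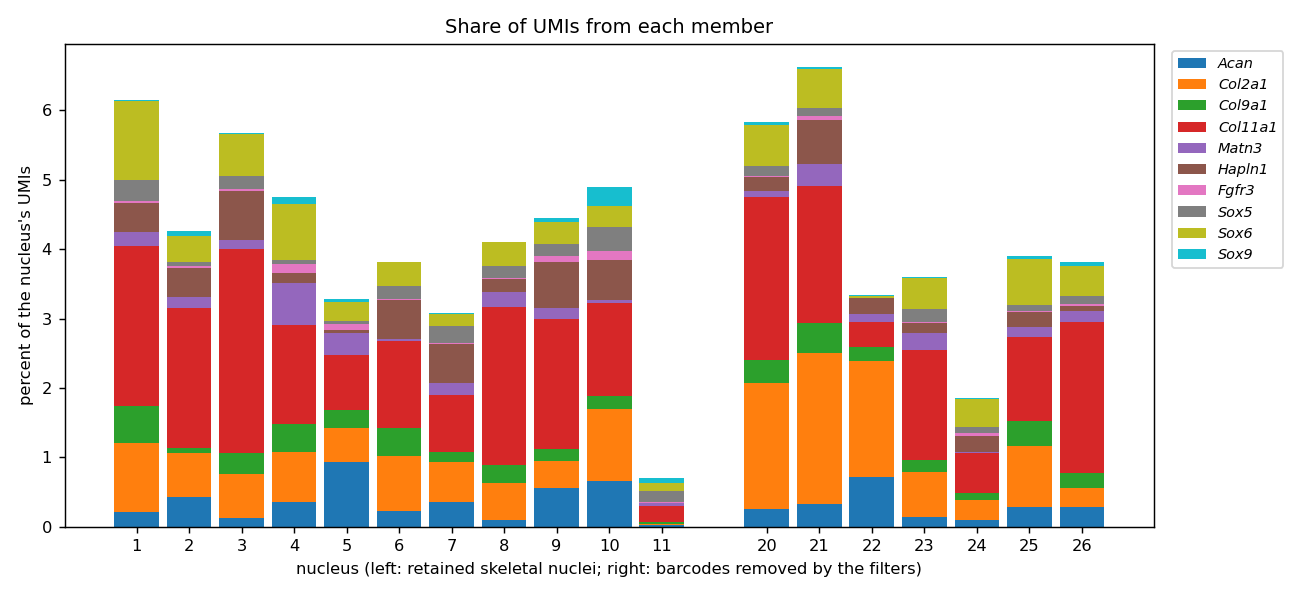
Each bar is 1 nucleus, and its colored parts give the percent of its UMIs from each member. The 11 retained nuclei are at the left and the 7 barcodes removed by the filters that had at least 8 members at the right; nucleus 11, at 0.704%, is the lowest and Col11a1 the widest part of most bars.

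Per 100 kb of gene span, Col2a1 had the highest level in the 11 nuclei with 19231 CPM, followed by Sox9 with 8692, Col11a1 with 8180 and Matn3 with 7917. Acan had 5342, Hapln1 4784, Col9a1 3217 and Fgfr3 2735 CPM per 100 kb. Sox6 had 775 and Sox5 165 CPM per 100 kb, the lowest of the 10. By this measure Sox9, which gave few UMIs, stood beside the collagens, and the long Sox5 and Sox6 genes stood at the end. Such an order depends on the division by spans of 5.54 kb (Sox9) to 953.6 kb (Sox5). Whether UMIs rise with span was not tested. In the other 165 skeletal nuclei Sox9 came first with 1016 CPM per 100 kb and Col11a1 second with 694, while Col2a1 had 53.1 and Hapln1 6.14.

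All 10 members were at least 2-fold higher in the 11 nuclei than in the other skeletal nuclei. In that comparison 12.7% of 9610 genes were at least 2-fold higher, but the nuclei were chosen on the members, so the count carries no weight. The ratios ran from 2.33 (1.96-2.75) for Sox5 to 779 (302-2873) for Hapln1. Without the 11 nuclei, the ratio of skeletal over other retained nuclei for the members together was 3.47 (3.26-3.68) instead of 9.80. Both ratios include the Sox6 UMIs of the myogenic-like nuclei. In the 165 nuclei Hapln1 was seen in 4 (2.42%) and Col2a1 in 10 (6.06%), at a median of 3383 UMIs. In the 391 immune-like nuclei, which should not make cartilage matrix, Hapln1 was seen in 7 (1.79%) and Col2a1 in 13 (3.32%), at a median of 2422 UMIs. Thinned to 500 UMIs, the shares were 0.606% and 1.21% in the 165 nuclei and 0.511% and 1.53% in the immune-like nuclei. In CPM, Col2a1 was at 15.5 (8.45-25.9) in the 165 nuclei and at 10.6 (5.62-18.0) in the immune-like nuclei, and Hapln1 at 4.41 (1.20-11.3) and 6.49 (2.80-12.8), with intervals that overlap. The intervals of Col9a1, Matn3 and Fgfr3 overlapped as well. Their levels were 5.52, 7.72 and 3.31 CPM in the 165 nuclei, against 0.811 CPM each in the immune-like nuclei. Overlapping intervals do not show equal levels. Acan, with 40.8 CPM (28.8-56.3) against 6.49 (2.80-12.8), and Sox9, with 56.3 CPM (41.9-74.0) against 3.25 (0.884-8.31), were above the immune-like level. So were Sox6, with 158.9 CPM (134-187) against 19.5 (12.5-29.0), Col11a1, whose thinned share was 26.1% against 1.79%, and Sox5, at 18.2% against 2.56%. This holds against the immune-like nuclei only. The unnamed cluster of 181 shallow nuclei had Acan at 45.28 CPM (19.55-89.22) and Sox6 at 220.8 CPM (157-301.8), not below the 165 nuclei. Of these genes Sox9, at 11.32 CPM (1.371-40.89), Col11a1, at 696 CPM, and Sox5, at 277 CPM, were lower in that cluster. The shallowest barcode had 500 UMIs, so free RNA could not be measured in droplets without a nucleus.

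Genes outside the list that mark cartilage were measured in the same 11 nuclei. Of 7 other chondrocyte markers (Col9a2, Col9a3, Col11a2, Comp, Cnmd, Snorc and Matn1), 564 UMIs fell in the 11 nuclei, 4847 CPM (4456-5264), with at least 1 UMI in each nucleus. The other 165 skeletal nuclei had 98.2 CPM (78.9-121), in 28 nuclei, and the 951 other nuclei 23.5 CPM. Col9a3, the third chain of type IX collagen, gave 172 UMIs in all 11 nuclei and 3 UMIs in the other 165, a ratio of 447 (150-2187). Comp, a pentameric matrix protein, gave 155 UMIs in all 11 against 38, a ratio of 31.8 (22.2-46.6). Cnmd, chondromodulin, gave 66 UMIs in 7 nuclei against 4, a ratio of 129 (47.9-486). Matn1, another matrilin, gave 19 UMIs in 5 nuclei against 0, at least 49.3-fold higher if the 0 is set to 3 UMIs, and the exact interval of the ratio starts at 36.4.

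Of the 17 other cartilage matrix genes, 13 had at least 10 UMIs: 9 were at least 2-fold higher, where 12.7% of all genes were, and 3 at least 2-fold lower, where 17.5% were. Their median ratio was 10.9, against 1.02 over all genes. Chst11 and Xylt1, enzymes of glycosaminoglycan synthesis, were 5.71-fold (4.84-6.74) and 10.9-fold (9.45-12.6) higher. The genes that were lower were Prg4, the lubricin of joint surfaces, with 1 UMI against 118, Dcn, decorin, with 10 UMIs against 280, and Cilp with 0 UMIs against 62. Epyc and Cilp2 also had 0 UMIs in the 11 nuclei, and 1 UMI each in the others.

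Regulators were mixed. Of 16 genes, 10 could be compared, of which 6 were at least 2-fold higher, where 12.7% of all genes were, and 3 lower, where 17.5% were. Wwp2, a ubiquitin ligase gene known as a target of SOX9, was 19.9-fold higher (16.3-24.4), Mef2c, a factor of chondrocyte maturation, 4.09-fold (3.39-4.93), Trps1 3.11-fold (2.78-3.46) and Runx2 2.27-fold (2.02-2.54). Arid5b was at 0.388 (0.253-0.571) and Creb5 at 0.106 (0.0425-0.221) of the level of the other nuclei, and Sox4 gave 1 UMI against 35, a ratio of 0.223 (0.00548-1.32) whose interval includes 1. Runx1 did not differ by the fold, at 1.02 (0.874-1.19).

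The genes of hypertrophic and mineralising cartilage divided the 11 nuclei. Pth1r, the receptor for parathyroid hormone-related protein, was seen in all 11 nuclei and was 12.6-fold higher (8.84-18.0), and Panx3 was seen in 8 nuclei and 28.9-fold higher (16.7-52.6). Col10a1, the collagen of hypertrophic chondrocytes, gave 44 UMIs in 2 nuclei only, 37 in one and 7 in the other, against 1 UMI in the other 165. Vegfa, with 2 UMIs in 2 nuclei against 132 in 41, and Spp1, with 2 in 1 nucleus against 95 in 34, were lower. Mmp13 and Ihh had 0 UMIs. Sp7 was seen in 9 of the 11 nuclei and was 4.00-fold higher (2.17-7.14). Of 7 genes compared, 4 were at least 2-fold higher, where 12.7% of all genes were, and 2 lower, where 17.5% were.

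Markers of the neighbouring skeletal states differed in direction. The 5 osteoblast markers summed to 627 CPM (492-789) in the 11 nuclei and to 291 CPM (257-329) in the other 165. Alpl, the alkaline phosphatase of mineralising cells, was 2.94-fold higher (1.92-4.41) and Sp7 4.00-fold (2.17-7.14). Ibsp was at 1.21 (0.714-1.94), and Ifitm5 and Bglap gave 0 UMIs against 3 and 5. The 5 markers of injury-induced fibrogenic cells (IIFCs) summed to 2647 CPM (2360-2960) in the 11 nuclei and to 7776 CPM (7596-7960) in the others. Of the 5, 4 were at least 2-fold lower, where 17.5% of all genes were, Col8a1 at 0.0143 of the other level. The 4 markers of skeletal stem/progenitor cells (SSPCs) gave 0 UMIs in the 11 nuclei, where 3 UMIs would be 25.8 CPM, against 103 CPM in the other 165. In the skeletal cluster that held 10 of the 11, its other 95 nuclei had 27.0 CPM (16.7-41.3), so a difference from these was not detectable at this depth. Of FGF and BMP receptors and partners, 0 of 6 were at least 2-fold higher and 1, Bmpr1b, was lower, at 0.174 (0.0830-0.324). Over all genes 12.7% were higher and 17.5% lower, so these counts are near those over all genes. Fgfr2 was at 1.21 (0.865-1.67) and Fgfr1 at 0.622 (0.404-0.922) of the other level. Fgfr3 was 127-fold higher, but the 11 nuclei were chosen on the members, Fgfr3 among them, so that contrast carries no weight. Immune markers gave 11 UMIs in 2 of the 11 nuclei (94.5 CPM), endothelial markers 12 UMIs, erythroid markers 1 UMI and myogenic markers 3 UMIs.

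**Figure D4:**
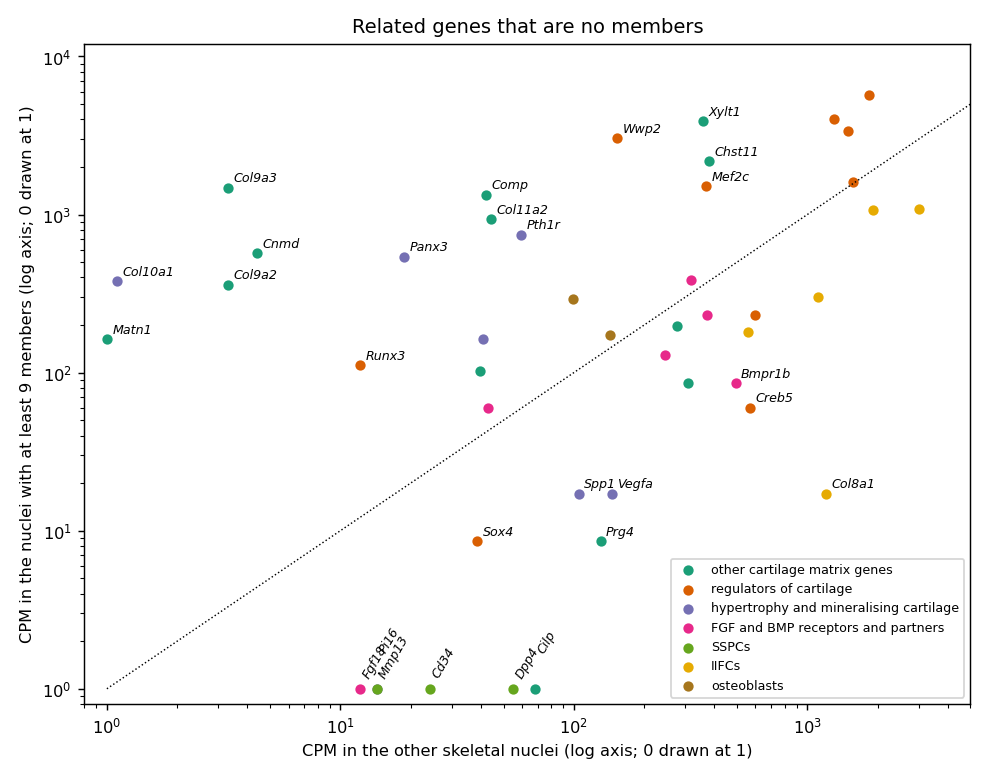
Each point is a gene outside the 10 members, with its CPM in the 165 other skeletal nuclei and in the 11 nuclei with at least 9 members, both on log axes with 0 drawn at 1. Col9a3, Cnmd, Col10a1 and Matn1 lie far above the dotted line of equal levels, and the IIFC markers lie below it.

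Co-detection was set against the number expected if each gene were spread over the nuclei by depth alone. Over the 45 pairs of members in the 176 skeletal nuclei the median of observed over expected was 2.02, and 23 pairs were at 2 or more. Pairs of the rarer genes were furthest from depth: Hapln1 and Fgfr3 were found together in 10 nuclei where 1.72 were expected, and Col2a1 and Fgfr3 in 13 where 2.55 were expected. All 13 nuclei with Fgfr3 also had Col2a1, Col11a1 and Sox6. Acan and Col2a1 shared 12 nuclei where 5.93 were expected, and all 6 matrix members were found together in 10 nuclei.

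The SOX genes met one another about as often as depth gives. Sox5 and Sox9 shared 31 nuclei where 30.2 were expected, Sox5 and Sox6 27 where 30.2 were expected, and Sox6 and Sox9 13 where 12.1 were expected. All 3 were found in 12 nuclei, of which 10 were among the 11. At least 1 of the 3 was found in 124 nuclei, and Sox5 alone in 63. The most frequent pair, Sox5 and Col11a1, shared 59 nuclei where 73.5 were expected.

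Without the 11 nuclei most pairs were no longer above the expected number. In the other 165 nuclei the median ratio was 0.931, 26 of the 45 pairs were below the expected number and 7 of these were not seen, while 8 pairs of low expected number were at 2 or more. Taking out the nuclei with most members lowers such numbers by construction. Acan and Col2a1 shared 1 nucleus there, and Sox6 and Sox9 shared 3 where 6.91 were expected.

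**Figure D5:**
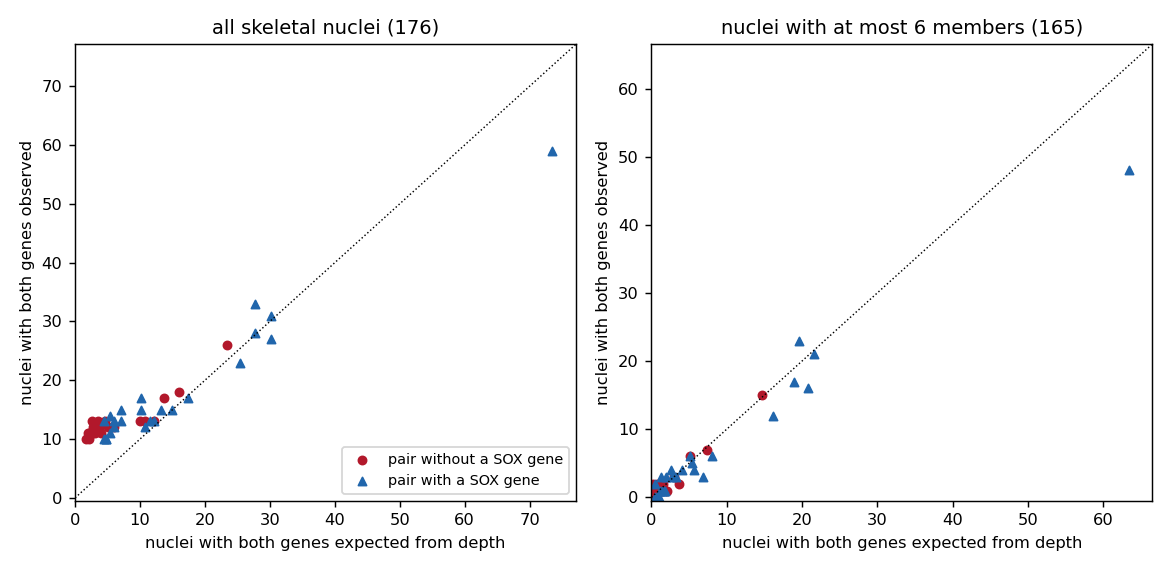
Each point is 1 of the 45 pairs of members, with the number of nuclei expected to hold both from depth and the number observed, in all 176 skeletal nuclei and in the 165 with at most 6 members; the dotted line marks equality. Pairs of matrix genes lie above the line in the plot of all skeletal nuclei, and Sox5 with Col11a1 lies below it in both, at 59 against 73.5 and 48 against 63.4.

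Across the 176 nuclei the log-normalized level of each member was correlated with that of the other 9 summed. Pearson's r was 0.56 for Col2a1, Col9a1, Matn3 and Hapln1, 0.54 for Fgfr3, 0.53 for Sox6, 0.49 for Acan, 0.44 for Sox9, 0.34 for Col11a1 and 0.09 for Sox5. Without the 11 nuclei r lay between -0.11 for Sox5 and 0.23 for Sox9. The nuclei share 1 library and differ in depth, so these values are descriptions.

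The genes most like the 6 matrix members over the 176 nuclei, among 6530 genes seen in at least 10% of them, were Grb14 (r = 0.58), Comp (0.55), Col11a2 (0.53), Wwp2 (0.52), Peg3 (0.51), Erg (0.51), Trpv4 (0.49), Sobp (0.47), Lmo7 (0.45) and Zfp385b (0.45). Col9a3, seen in 14 of the 176 nuclei, Panx3 in 13, Col9a2 in 12, Cnmd in 9 and Matn1 in 5 were below the 10% limit and were not ranked. Trpv4, which encodes a calcium channel, gave 44 UMIs in 10 of the 11 nuclei and 13 UMIs in the others. Erg, a transcription factor gene, gave 79 UMIs in 9 of the 11 nuclei and 36 in the others. Without the 11 nuclei r lay between 0.02 for Trpv4 and 0.35 for Grb14.

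Reclustered on their own, again without the members, the skeletal nuclei formed 2 clusters. Cluster 0 (105 nuclei, median 7859 UMIs) held 10 of the 11 nuclei and had Slc8a3, Col9a3 and Ibsp among its leading genes. Cluster 1 (71 nuclei, median 1510 UMIs) held the other one and was led by Pgr and Dpp4. The members summed to 7080 CPM (6907-7257) in cluster 0 and 2352 CPM (2097-2630) in cluster 1, and 8 of 10 were at least 2-fold higher in cluster 0, where 14.4% of genes were, and 0 members were at least 2-fold lower, where 8.88% of genes were. Sox5 was level between the clusters, at 0.977 (0.794-1.21), and Sox9 at 1.16 (0.636-2.33).

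Without the 11 nuclei the clusters stood at 2415 and 1524 CPM. Of the members with at least 10 summed UMIs, only Col11a1 was then at least 2-fold higher in cluster 0. It stood at 1458 against 482 CPM, a ratio of 3.03 (2.34-3.97). Of its 1134 UMIs in cluster 0, 273 lay in 1 nucleus and 133 in another. The ratio without these nuclei was not computed. Col9a1, Matn3, Hapln1 and Fgfr3 had fewer than 10 summed UMIs and could not be called. Col2a1, with 10 UMIs against 4, was at least 2-fold lower, at 0.414 (0.119-1.81), an interval that includes 1. How many of all genes passed the fold in this comparison was not counted. Acan had 30 UMIs against 7, a ratio of 0.709 (0.305-1.91). Sox5 was at 0.891 (0.715-1.12), and Sox6 at 1.24 (0.742-2.19). With a finer clustering a cluster of 44 nuclei held 9 of the 11 and had 11710 CPM of members, with Col10a1 and Panx3 among its leading genes.

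The filters removed many of the nuclei richest in cartilage RNA. The 319 removed barcodes held 5198 member UMIs, 37.1% of all 14008 in the library. Of the UMIs of all genes they held 1562070 of 5899407. The members stood at 3328 CPM (3238-3419) in them and at 2031 CPM (1989-2074) in the retained nuclei. Of these barcodes 7 had at least 8 members (6 had all 10), and they held 3915 of these UMIs. Of the 7, 5 were removed for mitochondrial UMIs of 5.45% to 15.1%, 1 for 5509 genes and 1 for 2.06% ribosomal UMIs. Their summed level was 39764 CPM (38528-41029), against 39080 CPM in the 11 retained nuclei.

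The 7 removed barcodes had 37 to 287 UMIs of Col2a1 each (median 139) against 3 to 118 in the 11 retained nuclei, ranges that overlap. In all, 59.1% of the 1727 Col2a1 UMIs of the library lay in removed barcodes, in 29 of the 319. For the other matrix members the share was 36.2% to 45.7%, for Sox5 36.0%, for Sox9 31.1% and for Sox6 24.7%. The share of the UMIs of all genes in removed barcodes lay between those of Sox6 and Sox9. Chondrocyte markers outside the list summed to 6592 CPM (6094-7119) in the 7 barcodes and osteoblast markers to 1524 CPM (1290-1788), against 627 CPM (492-789) in the 11 retained nuclei. Of the osteoblast marker UMIs, 110 of 150 were Ibsp in 1 barcode. Col10a1 gave 85 UMIs in 1 of the 7 barcodes, 31 in another and 0 in the rest, against 44 in the 11 retained nuclei. Mitochondrial UMIs moved with this group by the filter itself, and their part in the levels was not tested.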

How the data were processed

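Nuclei of 1 library of day 5 post-MTI were analyzed for 10 genes. The authors aligned the reads with Cell Ranger 7.0.1 to mm10 and deposited the UMI counts of each gene in each barcode without normalization. The sample label names a human reference, but all 32285 gene identifiers are of the mouse. From the deposited counts, nuclei with 200 to 5000 genes, mitochondrial UMIs under 5% and ribosomal ones under 2% were log-normalized, their mitochondrial and ribosomal shares were regressed out, and they were clustered in Seurat 5.3.0 (R 4.3.3; 2000 variable genes less the members and related cartilage genes, 30 principal components, resolution 1.0, and 15 components and resolution 0.5 for the skeletal nuclei). The study clustered this library together with a day 5 post-fracture dataset that is not used here, so the populations are rebuilt and may differ from its own. Clusters were named from marker lists without the members: at least 3 markers of at least 3 UMIs each and 1.5-fold over the other nuclei. The summed list also had to reach 1.5-fold, with a marker among the 100 leading genes of the cluster. In clusters with a median depth under 0.333 of that of all nuclei, a marker had to be among the 10 leading genes. A cluster stayed unnamed where another list had more markers among those 10. Scrublet in scanpy 1.11.5 marked 1 of 1419 barcodes.

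CPM, shares and ratios were computed in Python 3.11.15 with scipy 1.17.1, pandas 2.3.3 and numpy 2.4.6. Sums have exact Poisson intervals, shares exact Clopper-Pearson intervals and ratios exact conditional binomial intervals, at 95%. UMIs are molecules, but these intervals cover counting error only. A ratio of 2 or more with at least 10 summed UMIs counted as past the fold. A count of 0 in a ratio was set to 3 UMIs. Thinning used a fixed seed. Gene positions are those of GENCODE M21. Correlations used log counts per 10000. The scripts were tested on simulated data.

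All 10 members were to be named. Other genes came from fixed lists, from the 10 leading genes of a cluster and from the 10 genes most correlated with the matrix members. The members and lists were chosen with earlier results of these data known. The alternatives changed the genes left out of clustering, the filters, the resolution, the components, the regression, the grouping and the doublets.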

Additional observations from a re-analysis of the deposited data

Results flagged for a closer look

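The library of day 1 post-fracture (periosteum and hematoma of C57BL6 mice, 2405 retained nuclei) entered no comparison above, and 8 of the members had more than 3 UMIs there. Sox6 gave 889 UMIs in 635 nuclei (740 CPM), and Sox5 gave 237 UMIs in 210 nuclei (197 CPM). The study also removed myogenic cells from this library, while the values here are over all retained nuclei and are not split by population. In the MTI library Sox6 was highest in the myogenic-like nuclei. How much of the day 1 Sox6 level comes from such nuclei was not tested. Hapln1 gave 53 UMIs (44.1 CPM), Col11a1 51 (42.4 CPM), Col9a1 19 (15.8 CPM), Sox9 8 (6.65 CPM), Fgfr3 7 (5.82 CPM) and Matn3 6 (4.99 CPM). Acan and Col2a1 stayed at 3 UMIs or fewer. In barcodes of the same library with fewer than 200 genes, Sox6 stood at 567 CPM, Sox5 at 166, Hapln1 at 105, Col11a1 at 31.7, Col9a1 at 11.4, Matn3 at 4.67, Fgfr3 at 4.53 and Sox9 at 4.38 CPM. No nucleus of day 1 had more than 4 members. How much of the day 1 values comes from RNA free in the droplets was not tested.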

How the results depend on the processing

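The number of skeletal lineage-like nuclei stayed within 1.5 times of 176 in all 12 alternatives (118 to 192). The summed level of 6475 CPM moved beyond its interval in 4: to 5247 CPM with no upper limit of genes, 8175 CPM with no mitochondrial or ribosomal limit, 6976 CPM at resolution 2.0 and 5497 CPM with the marker score. The ratio of 9.80 moved to 10.6 with at least 500 genes, 6.69 with no upper limit of genes, 11.4 with no mitochondrial or ribosomal limit and 4.55 with the marker score. The share with at least 3 members (31.3%) moved to 39.5% with no mitochondrial or ribosomal limit, 40.7% at resolution 2.0, 6.82% thinned to 500 UMIs and 10.9% thinned to 1000 UMIs. Of 120 levels of single members under these alternatives, 91 stayed within their intervals and 29 did not.

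Chosen after seeing the data, the number of nuclei with at least 9 members lay between 9 and 16 except with the marker score (7), as 4 of the 11 were then scored as other populations. The number of members highest in skeletal nuclei was 8 or 9, and 1 with the marker score. Also chosen then, leaving out the 11 nuclei moved the summed level to 2289 CPM and the ratio to 3.47. The ratio of the highest skeletal cluster over the other skeletal nuclei was 3.01, 5.47 at subset resolution 1.0 and 1.59 without the 11 nuclei. No paired analysis was possible because each group has 1 library and no test was made. With 1 library no spread between animals is known. At this depth Fgfr3 and Sox9, at a median of 3 and 4 UMIs in the 11 nuclei, can be missed in nuclei that express them.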
